A study of Rattus norvegicus with 9 samples.

Results

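Scn4b, the gene of the sodium channel beta-4 subunit, was followed as transcript ENSRNOT00000030152 through 9 mRNA-seq libraries of rat dorsal hippocampus. It is 1 of the 31786 transcripts in the count table and 1 of 24 transcripts analysed here under the gene symbol with which the study pairs them. The gene was selected on the comparison of epileptic with control animals: the study named it there, and it was taken up here with its values known. The difference between those 2 groups is therefore given as a description without a test. CTRL animals were male Wistar rats on standard diet that received methyl scopolamine (1 mg/kg) and saline. PILO animals, also on standard diet, received methyl scopolamine at the same dose 30 min before pilocarpine (340 mg/kg), a muscarinic agonist that induces status epilepticus. Diazepam (8 mg/kg) was given after 60 min of status epilepticus. PILO+KD animals were treated like PILO animals and were fed a ketogenic diet, which is rich in fat and poor in carbohydrate. The diet was started directly after status epilepticus. The study reported fewer seizures per week in PILO+KD than in PILO animals. Diet and seizure frequency therefore cannot be told apart when these 2 groups are compared. Each group held 3 libraries, and the observation period was 84 days. All animals were male and received methyl scopolamine, and controls were matched for age, which is not stated in days. A second, smaller pilocarpine dose (175 mg/kg) was given where the first had not induced status epilepticus, and the labels do not state for which animals. No group received the ketogenic diet without pilocarpine, so an effect of the diet alone cannot be told apart from its effect in epileptic animals.

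Voltage-gated sodium channels consist of a large alpha subunit, which forms the pore, and smaller beta subunits with a single membrane-spanning segment and an extracellular immunoglobulin domain. The beta-4 subunit is bound covalently to the alpha subunit, and its short intracellular tail can enter and block the open pore. When the membrane repolarizes, release of this block gives a resurgent sodium current that helps neurons such as cerebellar Purkinje cells to fire at high frequency. Scn8a encodes the alpha subunit Nav1.6, which carries much of the resurgent current.

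The promoter is where transcription is initiated, so the sequence next to the start of Scn4b is shown. In the RefSeq annotation of the rat assembly GRCr8 the 250 bases before the start of Scn4b lie on the plus strand at chr8:54343623-54343872. The gene that precedes Scn4b on this assembly is Scn2b, which encodes another sodium channel beta subunit and lies on the same strand. The assembly differs from RN4, to which the authors aligned, so these coordinates do not apply to the count table. CpG dinucleotides, the usual sites of DNA methylation, are in capitals.
Scn4b promoter: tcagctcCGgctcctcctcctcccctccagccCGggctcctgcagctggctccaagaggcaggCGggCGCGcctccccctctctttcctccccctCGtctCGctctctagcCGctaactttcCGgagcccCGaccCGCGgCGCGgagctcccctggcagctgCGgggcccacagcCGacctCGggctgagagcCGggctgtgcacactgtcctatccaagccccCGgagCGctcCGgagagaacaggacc
This stretch had a GC content of 71.6% and 21 CpG dinucleotides (observed to expected ratio 0.692). The median over 33469 rat promoters of this length was 5, and 84.9% of them had fewer CpG than Scn4b. Of the 6 channel and transport genes below that were matched, Scn8a (53), Atp2a2 (45), Gabrd (35) and Kcna2 (33) had more CpG. Itpr1 (9) and Cacng2 (5) had fewer. GC box (GGGCGG, present on either strand in 30.5% of all promoters), TATA box (TATAAA, 12.9%) and cAMP response element (TGACGTCA, 1.59%) were searched on both strands, and none of the 3 motifs lies in the window. Among the 6 matched channel and transport genes 4 have a GC box, 1 has a TATA box and 0 have a cAMP response element. CpG content is a property of the reference sequence, and methylation was not analysed here.

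Total counts ranged from 9904067 (PILO+KD replicate 3) to 24092617 (PILO replicate 2). PILO+KD replicate 3 was sequenced on another flow cell than the other 8 libraries. PILO replicate 3 stood apart: its Spearman correlation with the other libraries averaged 0.940, against 0.970 to 0.981 elsewhere, and its 10 most abundant transcripts took 26.0% of counts against 12.1% to 19.3%. The main fold changes and correlations are also given without PILO replicate 3. Per the labels each hippocampal sample was processed on its own without pooling, and the 9 libraries carry 9 different sample names.

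Scn4b was sequenced with 533, 494 and 807 counts in CTRL replicates 1 to 3. The PILO libraries held 181, 140 and 78 counts, and the PILO+KD libraries 384, 584 and 138. The sum of 3339 counts was higher than that of 63.3% of the transcripts tested, so Scn4b was not a rare transcript in this tissue. Levels are given as CPM, which are counts scaled to the library total, here adjusted by the trimmed mean of M-values (TMM). The CTRL libraries held 25.7 (95% Poisson interval 23.6 to 28.0), 33.0 (30.2 to 36.1) and 34.3 CPM (32.0 to 36.8). In PILO the levels were 10.0 (8.60 to 11.6), 5.66 (4.76 to 6.68) and 4.56 CPM (3.60 to 5.69). In PILO+KD they were 16.5 (14.9 to 18.2), 29.1 (26.8 to 31.6) and 13.0 CPM (10.9 to 15.3). These intervals cover counting error only. The highest PILO library therefore lay below the lowest PILO+KD library, while PILO+KD replicate 2 lay within the CTRL range.

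**Figure D1:**
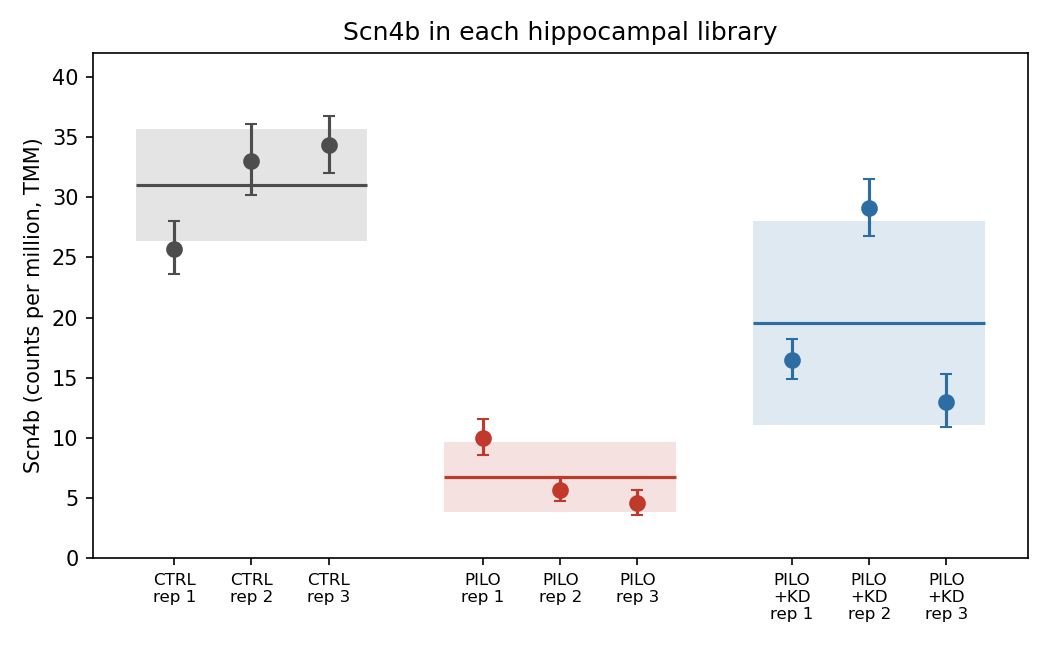
Scn4b level in CPM (TMM) in each of the 9 libraries, where points are libraries with 95% Poisson intervals, lines are group means and shaded bands are ± 1 SD. The 3 PILO libraries lie between 4.56 and 10.0 CPM, below every other library, and PILO+KD replicate 2 at 29.1 CPM lies among the CTRL libraries.

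The mean level was 31.0 ± 4.63 CPM in CTRL, 19.5 ± 8.48 CPM in PILO+KD and 6.74 ± 2.88 CPM in PILO (SD, n = 3 each). In this order CTRL and PILO+KD overlapped, and PILO was separate from both. The coefficient of variation between libraries was 14.9% in CTRL, 42.7% in PILO and 43.5% in PILO+KD, where counting error alone, as the root mean square over the libraries of a group, would give 4.14%, 9.22% and 6.21%. Its biological coefficient of variation was 28.4%, and the trend at its abundance was 21.9%. On the log2 scale its SD within groups was 0.496, larger than that of 90.8% of the 3488 transcripts of similar abundance (median 0.281). No other transcript in the table shared its counts in every library.

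PILO was compared with CTRL to measure Scn4b in chronic epilepsy on standard diet. The level in PILO was 0.217 of that in CTRL, and all PILO libraries were below all CTRL libraries. The fitted log2 fold change was -2.20 (SE 0.34), the sixteenth lowest of the 22283 transcripts tested (rank 16). Groups without overlap and with lower values in PILO were found for 14.2% of these transcripts, and nothing is read from Scn4b being among them, since the gene was chosen by this difference. Without PILO replicate 3 the log2 fold change was -2.00, and without PILO replicate 1, the PILO library with the highest level, it was -2.60. In a bulk sample fewer cells that express Scn4b and less Scn4b RNA per cell cannot be told apart.

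PILO+KD was compared with PILO to ask whether Scn4b differed between the diets in pilocarpine-treated animals. Scn4b was 2.90-fold higher in PILO+KD, with all 3 PILO+KD libraries above all 3 PILO libraries. The log2 fold change was 1.54 (SE 0.34, 95% interval 0.80 to 2.28), and it ranked 48 from the highest of 22283. With the quasi-likelihood test of edgeR the unadjusted p was 0.000666 and the adjusted p 0.624, so the difference did not pass the threshold of 0.05. No transcript of this comparison passed (0% of 22283, smallest adjusted p 0.151, with 1602 at an unadjusted p under 0.05), whereas DESeq2 called 22, the edgeR exact test 28 and limma voom 0. By unadjusted p Scn4b ranked 21, and 0.381% of transcripts were higher in PILO+KD at an unadjusted p under 0.01. Groups without overlap and with higher values in PILO+KD were found for 5.65% of transcripts. The exact two-sided permutation test of the log2 CPM of the 6 libraries gave p = 0.1, the smallest value that 3 against 3 libraries allow. DESeq2 (adjusted p 0.0150) and the edgeR exact test (adjusted p 0.00770) called Scn4b, and over the other alternatives the adjusted p ranged from 0.300 to 1.00. The PILO libraries in this comparison are those on which the gene was selected, and its values were known when it was taken up, so these p-values are not independent of the choice.

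Without PILO+KD replicate 3, which leaves only libraries of 1 flow cell, the log2 fold change between PILO+KD and PILO was 1.76 (edgeR, adjusted p 0.725). Without PILO+KD replicate 2 it was 1.13, and without PILO replicate 3 it was 1.34. The direction was the same in every alternative. The smallest value was 0.93 with limma voom and library quality weights.

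The distance of epileptic animals on ketogenic diet from controls was measured by comparing PILO+KD with CTRL. The level in PILO+KD was 0.629 of that in CTRL, and the log2 fold change was -0.66 (SE 0.33, 95% interval -1.37 to 0.05). The quasi-likelihood test of edgeR gave an unadjusted p of 0.0641 and an adjusted p of 1.00. The unadjusted p was 0.0549 with DESeq2, 0.0407 with the edgeR exact test, 0.0283 when the 6 libraries were fitted alone with edgeR and 0.00392 with limma voom, where the log2 fold change was -0.86. The adjusted p ranged from 0.253 (limma voom) to 1.00 over all alternatives. The exact permutation test of the 6 libraries gave p = 0.2. The interval includes 0 as well as a difference of -1.37, and neither a difference nor likeness of the groups is shown by this fit. In this comparison 0% of 22283 transcripts passed with edgeR (smallest adjusted p 0.232, 803 at an unadjusted p under 0.05), whereas DESeq2 called 28, the edgeR exact test 46 and limma voom 8. Non-overlapping groups with lower values in PILO+KD were found for 5.17% of transcripts, and Scn4b was not among them because of PILO+KD replicate 2. Without this library the log2 fold change was -1.07 (edgeR, unadjusted p 0.00670, adjusted p 0.458). Without PILO+KD replicate 3, and thus within 1 flow cell, it was -0.45 (adjusted p 1.00). Leaving out PILO replicate 3 kept it at -0.66 (edgeR, unadjusted p 0.0469, adjusted p 0.848), as did leaving out PILO replicate 1 (unadjusted p 0.0394). With each library left out in turn the unadjusted p of edgeR ranged from 0.00670 to 0.227. The CTRL libraries are again those on which the gene was selected.

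**Figure D2:**
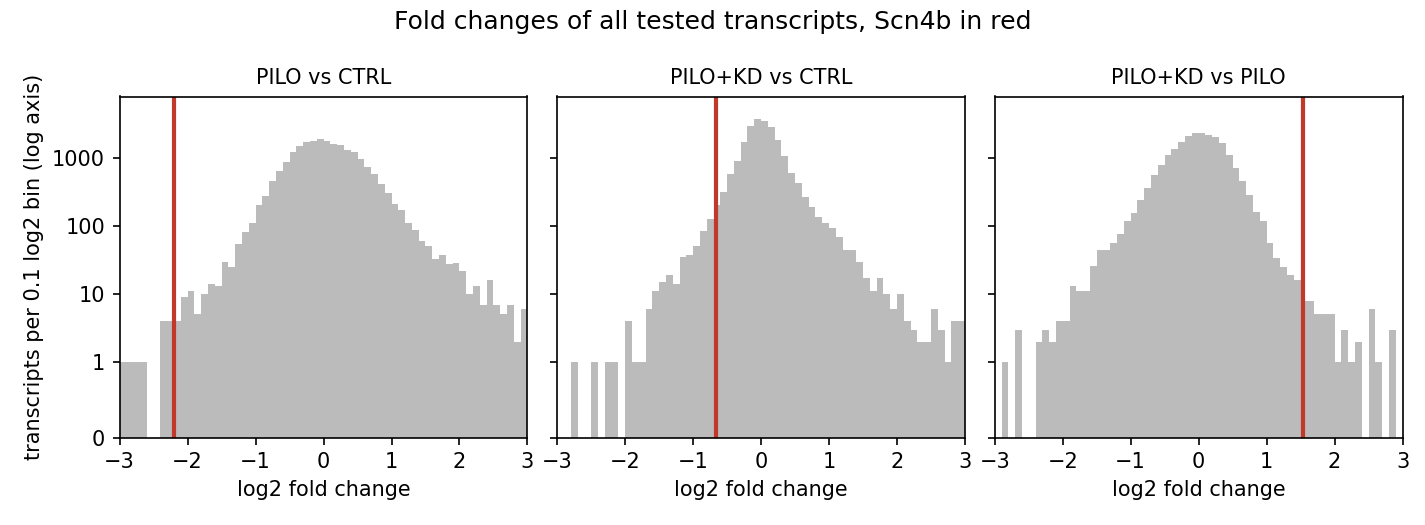
Number of transcripts per 0.1 log2 bin of fitted fold change (y axis logarithmic above 1) for all 22283 transcripts tested in the 3 comparisons, with Scn4b as a red line and values beyond ± 3 not drawn. Scn4b lies at -2.20 in the lower tail of PILO vs CTRL, at -0.66 in PILO+KD vs CTRL and at 1.54 in the upper tail of PILO+KD vs PILO.

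**Figure D3:**
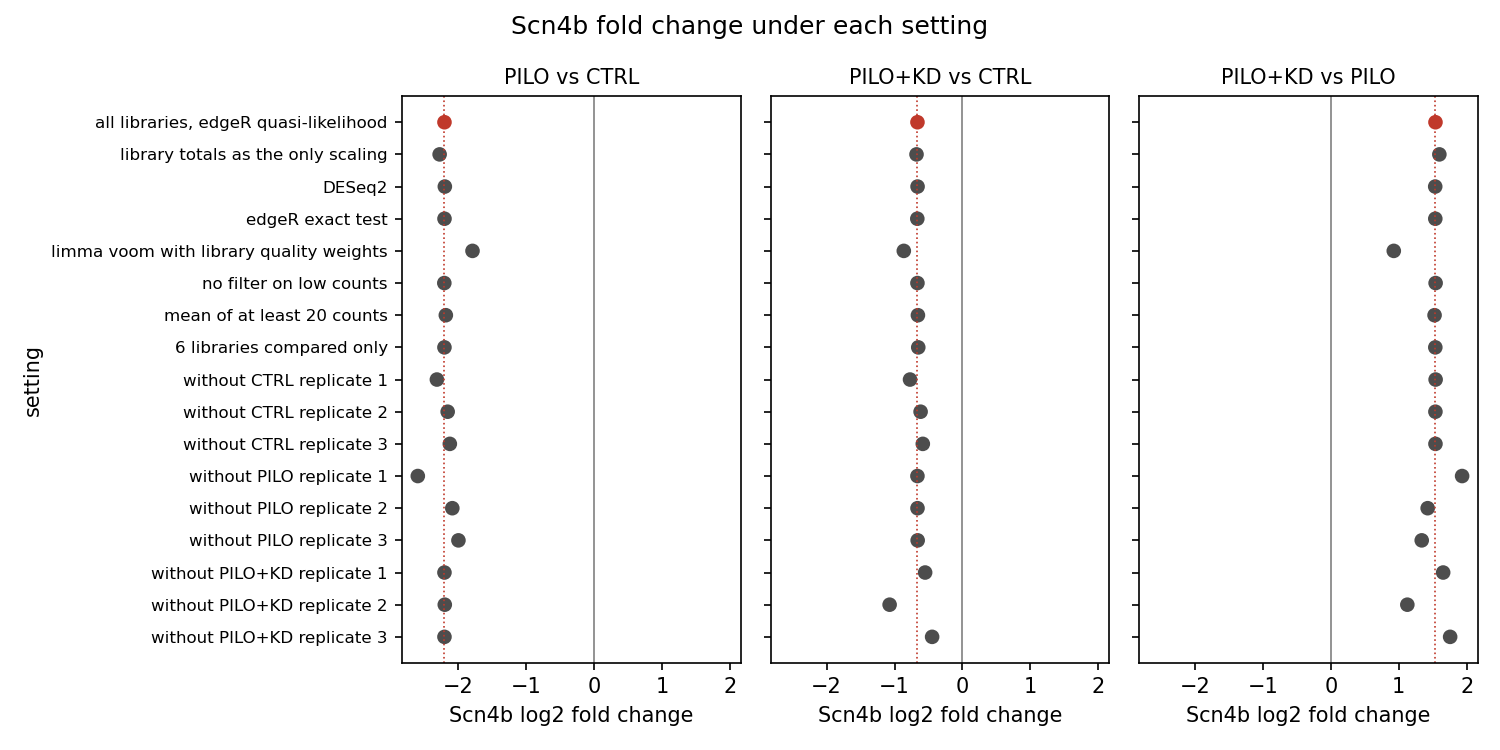
Scn4b log2 fold change in each comparison for the reported fit (red) and for each alternative tool, scaling, filter and left-out library (grey), with the reported value as a dotted line. All values for PILO vs CTRL are between -2.60 and -1.79, all for PILO+KD vs CTRL between -1.07 and -0.45 and all for PILO+KD vs PILO between 0.93 and 1.93.

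To see how Scn4b compared with other genes of neuronal excitability, 7 channel and ion transport genes that the study pairs with a transcript were examined. These are Scn8a, the potassium channel genes Kcna1 and Kcna2, Cacng2 (stargazin, an auxiliary subunit of AMPA receptors that is related to calcium channel gamma subunits), the calcium release channel gene Itpr1, the calcium pump gene Atp2a2 and Gabrd (delta subunit of GABA-A receptors outside the synapse). The study chose them on these libraries for their difference between PILO and CTRL, so their direction in that comparison is no independent evidence. Low values in the PILO libraries also favour higher values in PILO+KD vs PILO, and the share of all transcripts is therefore not what these genes would give without a difference between the diets. No other sodium channel subunit was analysed here.

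Scn8a, the alpha subunit gene, was sequenced at 62.9, 76.3 and 89.7 CPM in CTRL. The PILO libraries held 48.3, 48.3 and 15.3 CPM, all below CTRL. The PILO+KD libraries held 63.7, 67.3 and 62.9 CPM, above PILO and at the lower end of CTRL. The log2 fold changes of Scn8a were -1.03 (SE 0.34) for PILO vs CTRL, -0.24 (SE 0.34) for PILO+KD vs CTRL and 0.79 (SE 0.34) for PILO+KD vs PILO (edgeR, adjusted p 1.00 and 0.624 for the comparisons with PILO+KD). When PILO replicate 3 was left out, Scn8a was at -0.66 for PILO vs CTRL and at 0.42 for PILO+KD vs PILO. The fitted values of Scn8a were closer to 0 than those of Scn4b in each comparison, and the difference between the genes was not tested. The number of Scn4b counts per 100 Scn8a counts does not depend on the scaling between libraries. It was 40.9, 43.3 and 38.2 in CTRL (40.8 ± 2.53, SD, n = 3) and 20.7, 11.7 and 29.9 in PILO (20.8 ± 9.08). In PILO+KD it was 25.9, 43.2 and 20.6 (29.9 ± 11.8). The PILO libraries again lay below all CTRL libraries and PILO+KD replicate 2 among them, but PILO and PILO+KD overlapped on this measure. PILO replicate 3, with the lowest Scn4b level, had the highest ratio in PILO because its Scn8a level was also the lowest.

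All 7 genes were lower in PILO than in CTRL without overlap (14.2% of all transcripts), with log2 fold changes from -1.27 (Itpr1) to -0.94 (Cacng2). Their median of -0.999 is to be set beside -2.20 for Scn4b and 0.01 over all transcripts. PILO replicate 3 held the lowest PILO value for each of the 7 genes. This was not particular to that library: CTRL replicate 1 held the lowest CTRL value for all 7, and PILO+KD replicate 3 the lowest PILO+KD value for 6. Without PILO replicate 3 the median of the 7 genes in PILO vs CTRL was -0.68 (range -1.09 to -0.61), and Scn4b was -2.00. Relative to the CTRL mean on the log2 scale Scn4b was at -1.61, -2.42 and -2.73 in PILO replicates 1 to 3, and the median of the 7 genes was at -0.67, -0.73 and -1.95. Thus Scn4b was lower than the median of these genes in each PILO library, while its difference from them was smallest in PILO replicate 3.

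In PILO+KD vs PILO the 7 genes had a median log2 fold change of 0.71 (0.00 over all transcripts), from 0.18 for Kcna2 to 0.81 for Kcna1. Scn8a, Kcna1, Itpr1 and Atp2a2 were higher without overlap (4 of 7 genes, and 5.65% of all transcripts), and none of the 7 passed at an adjusted p under 0.05 with edgeR, DESeq2, the edgeR exact test or limma voom. At an unadjusted p under 0.05 there were 4 with edgeR, 4 with DESeq2, 4 with the exact test and 3 with limma voom. The shares of all transcripts at this p were 7.19%, 7.96%, 8.12% and 8.01% with these tools. With edgeR and 1 library left out the number ranged from 0 (without PILO+KD replicate 2) to 5, and was 2 without CTRL replicate 2 or PILO+KD replicate 3. It was 2 with library totals and 2 when the 6 libraries compared were fitted alone. Kcna1, a potassium channel of axons, shows the pattern with 15.2, 13.1 and 6.43 CPM in PILO and 20.0, 23.6 and 17.4 CPM in PILO+KD. Kcna2, which assembles with Kcna1, had 6.52, 5.90 and 2.40 CPM in PILO and 6.48, 5.58 and 4.70 CPM in PILO+KD, and these overlapped. Without PILO replicate 3 the median of the list was 0.39 and Kcna2 was at -0.14, and Scn4b was at 1.34. Without PILO+KD replicate 2 the median was 0.46 and Gabrd was at -0.23, and limma voom gave a median of 0.36 with 5 higher and 2 lower genes.

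In PILO+KD vs CTRL the 7 genes were lower with a median log2 fold change of -0.44 (0.01 over all transcripts), from -0.82 for Kcna2 to -0.22 for Atp2a2. The median was also -0.44 without PILO replicate 3. Kcna2 and Cacng2 were lower without overlap (2 of 7 genes, and 5.17% of all transcripts). None passed at an adjusted p under 0.05 with any of these 4 tools, and an unadjusted p under 0.05 was reached by 2 with edgeR, 2 with DESeq2, 2 with the exact test and 4 with limma voom. The shares of all transcripts at this p were 3.60%, 3.58%, 3.62% and 8.85% in the same order. With edgeR and 1 library left out it ranged from 0 (without CTRL replicate 2 or PILO+KD replicate 3) to 3, and was 1 without CTRL replicate 1, CTRL replicate 3, PILO replicate 1 or PILO+KD replicate 1. It was 0 with library totals. Relative to the CTRL mean Scn4b was at -0.90, -0.08 and -1.24 in PILO+KD replicates 1 to 3, and the median of the 7 genes at -0.33, -0.17 and -0.53. Gabrd differed from Scn4b in its order: it was lowest in PILO+KD replicate 1 (5.75 CPM, against 25.5 and 19.2 CPM), whereas Scn4b was lowest in PILO+KD replicate 3. The comparisons share their CTRL or PILO libraries, so no relation between them is given.

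**Figure D4:**
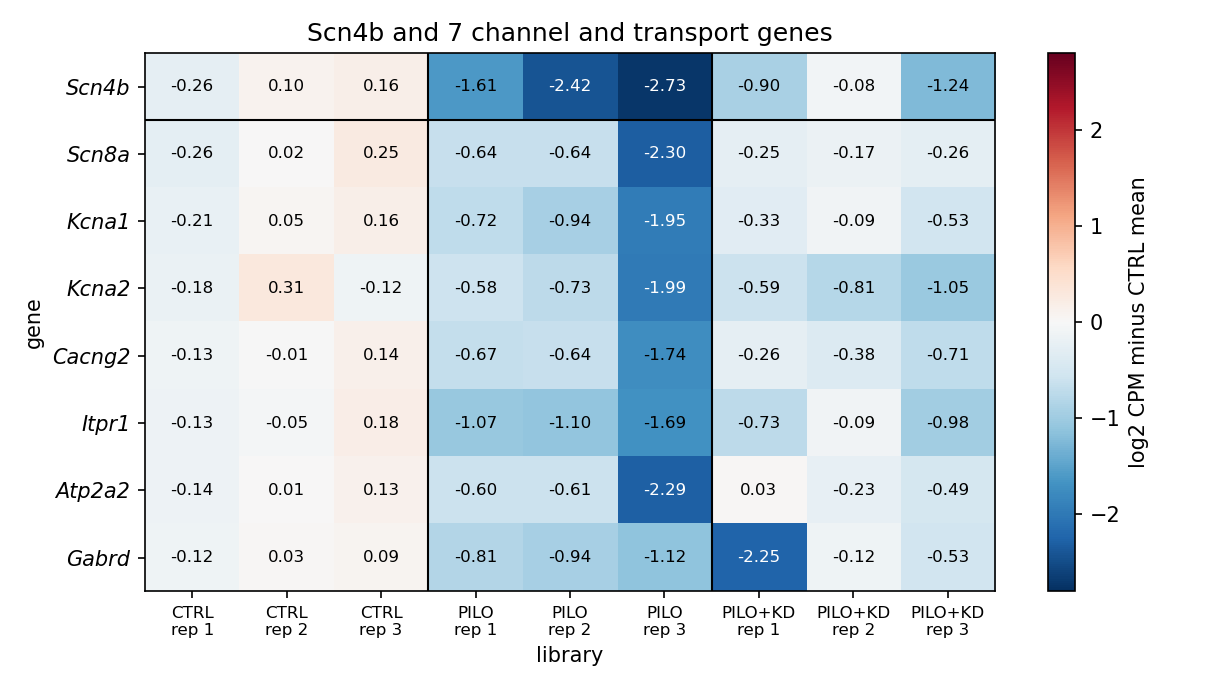
Difference of log2 CPM from the CTRL mean for Scn4b and 7 channel and transport genes (rows) in the 9 libraries (columns), with the value in each cell and blue for lower levels. Scn4b is at -1.61, -2.42 and -2.73 in PILO, and PILO replicate 3 is the darkest PILO column for every gene.

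**Figure D5:**
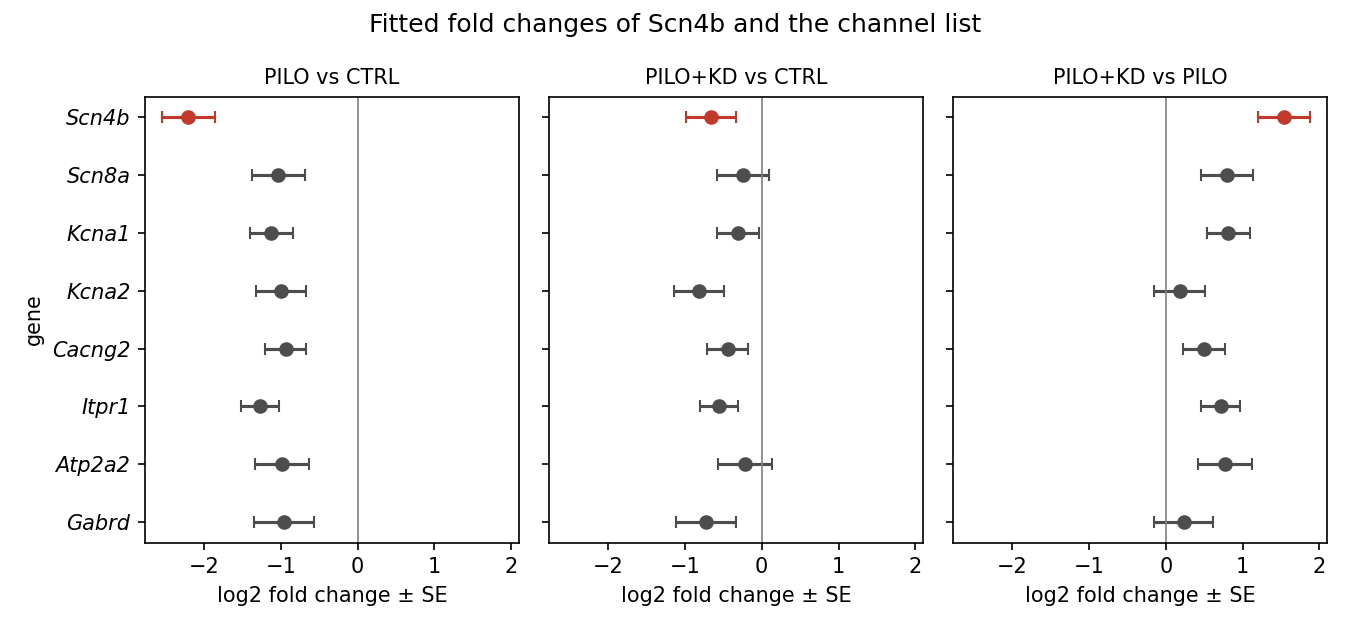
Fitted log2 fold changes with SE bars for Scn4b (red) and the 7 genes (grey) in the 3 comparisons, with a vertical line at 0. Scn4b has the lowest value in PILO vs CTRL (-2.20) and the highest in PILO+KD vs PILO (1.54), while Kcna2 and Gabrd are lower than Scn4b (-0.66) in PILO+KD vs CTRL.

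Levels that followed Scn4b across libraries were sought by Pearson correlation of log2 CPM over the 9 libraries, among 19514 transcripts with a mean of at least 20 counts. These values are descriptions: the libraries share their groups, and 1.09% of transcripts reached r of at least 0.9. Among the 23 other paired genes Itpr1 was the most similar (r = 0.964, n = 9 libraries, rank 12 of all transcripts), and the order of its libraries was identical to that of Scn4b (Spearman 1). Itpr1, which releases calcium from the endoplasmic reticulum, was sequenced at 219, 233 and 273 CPM in CTRL. It was at 115, 112 and 74.4 CPM in PILO and at 146, 225 and 122 CPM in PILO+KD, where replicate 2 again lay near CTRL. Pcdh19, a protocadherin of neuronal adhesion that is mutated in an epilepsy that mostly affects girls, followed with r = 0.945, and Kcna1 with r = 0.934 (Spearman 1). The first place among the paired genes depended on single libraries. Without PILO replicate 3 it was held by Kcna1 (r = 0.985), with Itpr1 at 0.943 and Pcdh19 at 0.927. Without PILO+KD replicate 1, its lowest library, Gabrd had the highest r (0.991, against 0.558 over all libraries), and without PILO+KD replicate 3 Zmynd8, a chromatin reader, had the highest (0.975, against 0.920 over all libraries and 0.871 without PILO replicate 3). With each of the other 6 libraries left out Itpr1 stayed first.

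The opposite pattern was found for Npc2, a lysosomal cholesterol carrier (r = -0.949), the transcriptional repressor Tgif1 (r = -0.920) and the RNA-editing enzyme Apobec1 (r = -0.909). Tgif1 had 16 to 71 counts per library and Apobec1 34 to 126, so counting error weighs more on their values than on those of Npc2. Npc2 was sequenced at 91.8, 76.9 and 86.8 CPM in CTRL, 164, 211 and 206 CPM in PILO and 138, 119 and 152 CPM in PILO+KD. Each PILO library was thus above each CTRL library and PILO+KD lay between them. Npc2 had the lowest r of the paired genes with any 1 library left out (-0.973 to -0.933). Tgif1 was at -0.893 and Apobec1 at -0.863 without PILO replicate 3. Deviations from the group means, which leave out the differences between groups, gave r of 0.878 for Itpr1, 0.867 for Nrip1, a nuclear receptor corepressor, and 0.780 for Kcna1. They gave -0.913 for Npc2, -0.780 for Tgif1 and -0.689 for Gadd45a, a stress-induced gene. For Pcdh19 the value was 0.639 and for Apobec1 -0.482. Without PILO replicate 3 these deviations gave 0.919 for Kcna1, 0.840 for Itpr1, 0.824 for Nrip1 and 0.510 for Pcdh19. They gave -0.922 for Npc2, -0.797 for Gadd45a, -0.766 for Tgif1 and -0.163 for Apobec1. Leaving out PILO+KD replicate 2 instead gave -0.874 for Npc2, -0.559 for Tgif1 and -0.373 for Gadd45a, and without PILO replicate 1 Apobec1 was at -0.250.

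Among all compared transcripts ENSRNOT00000002068 (r = 0.976) and ENSRNOT00000019551 (r = 0.975) were the most similar to Scn4b over the 9 libraries. Without PILO replicate 3 they ranked 15 (r = 0.962) and 9 (r = 0.974), and without PILO replicate 2 they ranked 58 and 56 (r = 0.968 for both), so their rank rested on single libraries. The level of ENSRNOT00000002068 was 15.6 ± 0.586 CPM in CTRL, 8.79 ± 1.61 CPM in PILO and 13.7 ± 3.23 CPM in PILO+KD (SD, n = 3). That of ENSRNOT00000019551 was 56.4 ± 5.56, 33.0 ± 5.59 and 48.1 ± 12.5 CPM in the same order. ENSRNOT00000033110 (r = -0.990) and ENSRNOT00000005041 (r = -0.980) had the most opposite pattern. Their r without PILO replicate 3 was -0.986 and -0.983. The level of ENSRNOT00000033110 was 2.16 ± 0.604 CPM in CTRL, 7.12 ± 2.53 CPM in PILO and 3.13 ± 0.851 CPM in PILO+KD, and that of ENSRNOT00000005041 was 4.36 ± 0.107, 10.7 ± 1.40 and 5.68 ± 1.34 CPM. The table gives no symbols for these 4 transcripts.

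Gfap, the intermediate filament of astrocytes and the 1 glial marker among the paired genes, was sequenced at 704, 526 and 770 CPM in CTRL. It was at 2006, 2853 and 1543 CPM in PILO and at 2632, 834 and 1786 CPM in PILO+KD. PILO+KD replicate 2, the library with the Scn4b level nearest to CTRL, therefore also had the lowest Gfap level of its group. Scn4b counts per 1000 Gfap counts were 36.6, 62.9 and 44.6 in CTRL, 4.99, 1.98 and 2.96 in PILO and 6.26, 34.9 and 7.26 in PILO+KD. The correlation of Gfap with Scn4b over the 9 libraries was -0.769, and -0.433 for deviations from the group means. These were -0.884 and -0.744 without PILO replicate 3. Without PILO+KD replicate 2 they were -0.749 and 0.217, so the negative value within groups rested on this library. The part of glial or neuronal cell content in the Scn4b values was not tested.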

How the data were processed

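Poly-A RNA of the dorsal hippocampus was sequenced in 36 cycles, with 3 libraries per group, and groups were taken from the labels. Replicate numbers follow the order of deposition and pair no libraries. The deposited values are raw counts of reads per Ensembl transcript, which the authors obtained by alignment with BWA to RN4 after quality control with FastQC. How reads shared between transcripts were counted, and whether strand was used, is not given in the sources used here, so Scn4b reads cannot be told apart from those of overlapping or antisense genes.

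Of 31786 transcripts, 22283 (70.1%) entered the tests, namely those whose summed count reached the 30th centile (55). All 9 libraries entered 1 quasi-likelihood fit of edgeR 4.0.16 in R 4.3.3 (TMM, robust, two-sided). Benjamini-Hochberg adjustment ran over every tested transcript of a contrast. The call on adjusted p used 0.05. CPM were computed from counts with TMM scaling, and log2 CPM with a prior count of 2. DESeq2 1.42.0, the edgeR exact test, limma 3.58.1 (voom with library quality weights), other scalings and filters, and each library left out in turn were the alternatives. The fit was tested on simulated data without a library that stands apart, which does not bear on the number of calls in these libraries.

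The table gives transcript identifiers without symbols, and 0 of them matched the RefSeq table at hand. Symbols are those of 24 pairs of the study, and 1 further pair is not reported here. Promoter sequence is from RefSeq (GRCr8) and was matched by symbol for 7 of 8 genes. Scn4b, the lists and the tests were chosen with earlier results of these data known. The text names Scn4b, 7 channel genes and the markers among the paired genes. It also names the 3 paired genes at each end of the correlation with Scn4b over libraries and of that within groups, and the 2 transcripts at each end of the former. The fits of the channel list under each alternative, and the ranks of correlations with each library left out, were added after seeing the data, and Zmynd8 was named from them. A comparison of beta subunit proteins was planned and not run.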

Additional observations from a re-analysis of the deposited data

How the results depend on the processing

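Scn4b kept its direction in each comparison under all alternatives. With each library left out in turn its log2 fold change ranged from -2.60 to -2.00 for PILO vs CTRL, from -1.07 to -0.45 for PILO+KD vs CTRL and from 1.13 to 1.93 for PILO+KD vs PILO. The last of these passed with DESeq2 (1.54, adjusted p 0.0150) and the edgeR exact test (1.54, adjusted p 0.00770) and with no other alternative. The number of transcripts called in PILO vs CTRL was 29 (edgeR quasi-likelihood test), and alternatives gave 9 with scaling by library totals, 752 with DESeq2, 687 with the edgeR exact test, 1878 with limma voom and 85 without a filter on low counts. It ranged from 0 (without CTRL replicate 1 or 3) to 83 (without PILO replicate 3) with a library left out, and was 2 without CTRL replicate 2 and 2 without PILO+KD replicate 3. In PILO+KD vs CTRL it was 0, against 28 with DESeq2, 46 with the exact test and 8 with limma voom, and it ranged from 0 to 8 with a library left out, highest without PILO+KD replicate 2. In PILO+KD vs PILO it was 0, against 22 with DESeq2, 28 with the exact test and 1 without a filter, and it ranged from 0 to 1 with a library left out. The cause of these differences was not tested. Library totals moved the median of all transcripts in PILO+KD vs PILO to 0.10, beside which Scn4b was at 1.60. The median of the 7 channel genes ranged from -1.24 to -0.68, from -0.49 to -0.33 and from 0.39 to 0.82 in the 3 comparisons with a library left out. No paired analysis was possible because replicate numbers follow the order of deposition and pair no libraries. With 3 libraries per group the number of libraries limits the precision of Scn4b, and PILO replicate 3 has the fewest Scn4b counts (78).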
